A study of Caenorhabditis elegans with 2 samples.

Results

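HSF-1 binding was examined at 10 genes of the endoplasmic reticulum (ER), out of 19973 protein-coding genes of Caenorhabditis elegans. The 10 were chosen by name as ER chaperones and genes of the unfolded protein response (UPR), with earlier results of these data known. There were 6 chaperone genes, hsp-3, hsp-4, crt-1, pdi-2, pdi-3 and enpl-1, 3 UPR sensor genes, pek-1, ire-1 and atf-6, and the UPR transcription factor gene xbp-1. A peak was assigned to a gene when its summit lay between 1000 bp upstream and 200 bp downstream of any annotated transcript start of that gene. The data were from chromatin immunoprecipitation and sequencing of whole animals of strain RW12254, genotype st12254[hsf-1::TY1::EGFP::3xFLAG] I, in which the hsf-1 gene carries the tags by CRISPR insertion. The animals were young adults of 63 h, synchronised as bleached and starved L1 larvae, and the antibody used recognises the green fluorescent protein tag. There was 1 group of 2 biological replicates, and the labels name no heat or ER stress treatment, so no difference between conditions could be tested. Whole animals hold every tissue, and a weak peak in many cells and a strong peak in a few cells cannot be told apart.

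The ER folds secreted and membrane proteins with its own chaperones, among them BiP, an HSP70, GRP94, an HSP90, calreticulin and the protein disulfide isomerases. When unfolded proteins accumulate there, the sensors IRE-1, PEK-1 and ATF-6 signal to the nucleus and to translation, and IRE-1 splices the xbp-1 mRNA so that it encodes an active transcription factor, which raises the chaperone genes. HSF-1 is best known for the parallel response to unfolded proteins in the cytosol, where it acts at the cytosolic HSP70 and HSP90 genes through heat shock elements, alternating GAA and TTC units.

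The sequences under the members' summits are shown because the 2 responses are known for different elements. The heat shock element was searched as the core GAANNTTC extended on either side by 1 further unit, so that 3 units alternate with 2 bases between them, on both strands, and every such match holds the core. In the sequences below, read 5′ to 3′ on the strand of the gene from the RefSeq genome of the ce11 assembly, capitals mark the bases that match a heat shock element, complete or, where none was complete, with the fewest mismatches. Of the members' strongest peaks, those of pek-1 (chrX:11414947-11415097, minus strand, intergenic) and xbp-1 (chrIII:4193517-4193667, plus strand, intergenic) are shown, with the elements in a coding exon of hsp-3 (chrX:6090352-6090502, minus strand). The strongest peaks of the cytosolic genes hsp-1 (chrIV:17278496-17278646, plus strand, intergenic), F44E5.4 (chrII:11759394-11759544, minus strand, intergenic) and hsp-90 (chrV:14685707-14685857, plus strand, intron of hsp-90) stand beside them. The stretches are centred on the pooled summit, or for hsp-3 on the middle of its elements.
pek-1: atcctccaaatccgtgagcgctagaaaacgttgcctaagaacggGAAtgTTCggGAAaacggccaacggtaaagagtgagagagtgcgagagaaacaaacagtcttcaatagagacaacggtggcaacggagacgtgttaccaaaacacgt
xbp-1: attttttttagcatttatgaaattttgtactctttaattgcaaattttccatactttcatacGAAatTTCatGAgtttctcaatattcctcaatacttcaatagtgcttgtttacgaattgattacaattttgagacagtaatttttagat
hsp-3, coding exon: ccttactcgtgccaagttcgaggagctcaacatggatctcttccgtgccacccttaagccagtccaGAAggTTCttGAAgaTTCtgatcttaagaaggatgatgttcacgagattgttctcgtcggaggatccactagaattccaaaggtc
hsp-1: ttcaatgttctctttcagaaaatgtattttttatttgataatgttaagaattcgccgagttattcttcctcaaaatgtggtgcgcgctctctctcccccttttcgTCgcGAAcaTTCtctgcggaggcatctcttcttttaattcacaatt
F44E5.4: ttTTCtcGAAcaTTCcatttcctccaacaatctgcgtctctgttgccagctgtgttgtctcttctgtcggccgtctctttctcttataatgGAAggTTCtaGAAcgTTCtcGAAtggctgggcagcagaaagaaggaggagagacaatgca
hsp-90: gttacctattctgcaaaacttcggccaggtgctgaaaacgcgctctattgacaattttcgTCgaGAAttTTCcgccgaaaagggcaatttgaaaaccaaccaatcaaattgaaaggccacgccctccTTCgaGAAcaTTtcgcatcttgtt
The pek-1 stretch holds 1 complete element, the hsp-3 coding exon holds 2 overlapping ones, and the xbp-1 stretch holds the core and 1 more unit with a mismatch. The F44E5.4 stretch holds 4, of which 3 overlap in a run, while the hsp-1 stretch holds 1 match and the hsp-90 stretch 2, each with 1 mismatch.

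The UPR element, searched as TGACGTG on both strands, is known as a binding sequence of XBP-1 and ATF6 in mammals. Capitals mark it, or its reverse complement, in the next 3 stretches, on the same assembly and again on the strand of the gene. They lie at the strongest peaks of hsp-4 (chrII:7352646-7352831, minus strand, intergenic), crt-1 (chrV:6100717-6100917, minus strand, across the exon of the noncoding RNA gene Y38A10A.8) and hsp-3 (chrX:6092125-6092259, minus strand, intergenic), and end where a transcript of the gene begins if that is nearer.
hsp-4: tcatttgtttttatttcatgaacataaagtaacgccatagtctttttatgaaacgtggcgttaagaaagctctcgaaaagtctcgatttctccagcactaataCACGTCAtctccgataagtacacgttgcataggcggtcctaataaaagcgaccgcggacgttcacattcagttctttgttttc
crt-1: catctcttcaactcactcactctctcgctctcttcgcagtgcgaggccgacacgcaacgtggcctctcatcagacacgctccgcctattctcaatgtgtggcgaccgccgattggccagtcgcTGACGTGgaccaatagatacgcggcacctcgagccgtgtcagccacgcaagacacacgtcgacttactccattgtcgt
hsp-3, first start: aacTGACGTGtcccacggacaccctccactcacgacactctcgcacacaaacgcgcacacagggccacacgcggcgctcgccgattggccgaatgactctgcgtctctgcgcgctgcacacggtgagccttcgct
Each stretch holds 1 UPR element and no complete heat shock element. Not capitalised here, 1 heat shock element match with 1 mismatch lay within 100 bp of the hsp-4 summit. The summits shown for crt-1 and hsp-3 had none. The pooled summit lay 3 bp from the UPR element at hsp-4, 23 bp at crt-1 and 91 bp at hsp-3.

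HSF-1 peaks were called at 5 of the 10 members in the pooled list of both replicates, hsp-3, hsp-4, crt-1, pdi-3 and pek-1, against 7.63% of all protein-coding genes (1524 of 19973). A peak counts as called when it is in the authors' thresholded list, which holds peaks with an irreproducible discovery rate (IDR) of 0.01 or less. The IDR tends to be low for a peak that ranks both high and alike in the sets of peaks compared. Both the IDR and the signal, the peak caller's height for a peak, are the authors' values. The conservative list of both replicates also had 5 members, with xbp-1 in place of hsp-3, against 7.11% of all genes. Replicate 2 alone had 4, hsp-3, hsp-4, pdi-3 and pek-1, against 5.29%. Replicate 1 alone had 1, pek-1, against 3.83%, so that 1 member was called in all 4 lists. At pdi-2, ire-1, atf-6 and enpl-1 no list had a called peak. A ranked list holds weaker peaks too, and in the pooled ranked list every member had a summit in its window, but so did 71.2% of all genes. An IDR of 0.05 or less in that list was met at the same 5 members and at 12.2% of all genes.

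The members' peaks were low in signal among called genes, though every member was above the median of all genes. The strongest ranked peak in a window was taken in each list on its own, so that it can be a different summit in each list. In the members' windows it had a median pooled signal of 63.4 over the 10 members, against 26.23 over all genes, where a gene without a ranked peak counts as 0. Among the 1524 called genes the median was 107.8, and 4 of the 5 called members lay below it. The exception was pek-1. Set against all genes, the members' strongest pooled peaks exceeded a median of 90.6% of genes. The share was 95.5% at hsp-4, 95.3% at crt-1, 94.0% at pdi-3 and 91.4% at hsp-3, and lowest at ire-1, 55.0%. With 2 replicates and no read counts, no error beyond the values of both replicates can be given.

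**Figure D1:**
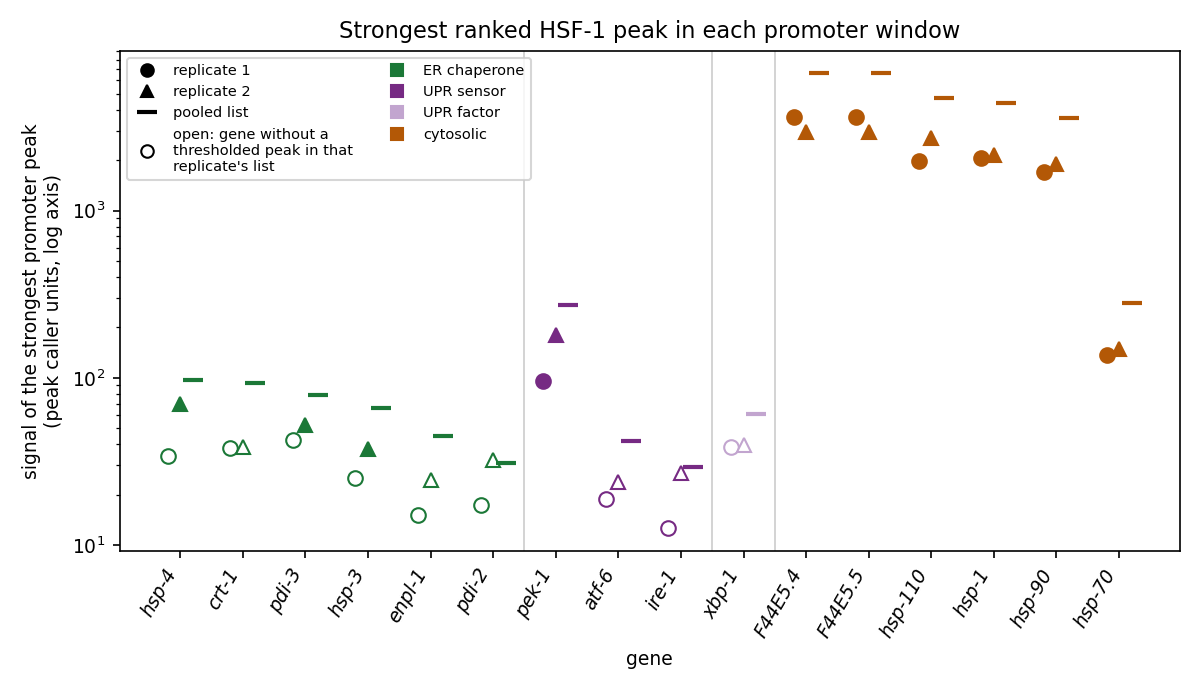
Signal of the strongest ranked HSF-1 peak in the promoter window of each member and each cytosolic relative (log axis), as circles for replicate 1, triangles for replicate 2 and bars for the pooled list, each the strongest of its own list; open symbols mark genes without a called peak in that replicate. The ER chaperones reach at most 97.43 in the pooled list and pek-1 reaches 273.9, while the cytosolic genes other than hsp-70 lie between 3584 and 6602.

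The strongest peak among the members was that of pek-1, which encodes the worm ortholog of PERK, the kinase that slows translation under ER stress. The peak (chrX:11414979-11415120, intergenic) had a signal of 96.4 in replicate 1, 181.0 in replicate 2 and 273.9 in the pooled list. Both replicates were above the median of called genes in their own list, which was 79.0 and 81.47. Its IDR was 4.11e-05 in the pooled list, 4.9e-05 in the conservative list, 8.81e-05 in replicate 1 and 1.8e-05 in replicate 2. The pooled signal exceeded that of 99.0% of all genes and 87.3% of the called genes. The summit lay 135 bp upstream of the only annotated start of pek-1 (chromosome X, 11410176 to 11414887), and the summits of the replicates were 133 and 144 bp upstream. The complete heat shock element printed above, at chrX:11415041-11415053, was 19 bp from the pooled summit, 21 bp from that of replicate 1 and 10 bp from that of replicate 2. No other protein-coding gene had this summit in its window. The cytosolic HSP70 gene hsp-1 had 16.0 times its pooled signal.

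The other 2 sensor genes had no called peak. IRE-1 is the kinase and ribonuclease that splices the xbp-1 mRNA, and ATF-6 is the membrane-bound transcription factor that is released by cleavage in mammals. At ire-1 the strongest pooled ranked peak, 171 bp upstream of a start, had a signal of 29.24 and an IDR of 0.437, and inside it replicate 2 had a summit of signal 15.98 and replicate 1 had none. The strongest summits of the replicates at ire-1 were elsewhere and 10217 bp apart, with a signal of 12.58 in replicate 1, 634 bp upstream of a start, and 26.88 in replicate 2, in an intron by another start. At atf-6 the strongest peak had 18.92 in replicate 1, 23.93 in replicate 2 and 42.07 pooled, with a pooled IDR of 0.325. Both genes lay within the bulk of all genes, and ire-1 was above 55.0% of them. The pooled signal at pek-1 was 9.37 times that at ire-1 and 6.51 times that at atf-6. With the strongest summit of each replicate's own list, the ratios were 7.66 and 5.1 in replicate 1 and 6.73 and 7.57 in replicate 2, so pek-1 was the highest of the 3 sensor genes in each replicate.

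The BiP genes hsp-3 and hsp-4, which encode the HSP70 chaperones of the ER lumen, both had called peaks, but in different places. At hsp-4 (chromosome II, 7350112 to 7352645) the strongest peak (chrII:7352579-7352882, intergenic) had a signal of 34.13 in replicate 1, 69.49 in replicate 2 and 97.43 pooled. It was called in the pooled list with an IDR of 0.00435, in the conservative list with 0.00192 and in replicate 2 with 0.00168, but in replicate 1 its IDR was 0.81. The summit lay 86 bp upstream of the first start of the gene, and the summits of replicate 1 and replicate 2 were 36 and 11 bp from the UPR element. A further called summit of signal 72.54 lay 521 bp upstream, with a pooled IDR of 0.00458. It was called in replicate 2 with a signal of 49.94, but was not in the conservative list, where its IDR was 0.0172. The region around that further summit was soft-masked as repeat over 93.5% of its bases, and its part in the call was not tested.

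At hsp-3 (chromosome X, 6089028 to 6092124) the promoter peak and the called peaks were not the same. The strongest ranked summit (chrX:6092007-6092310, intergenic) lay 35 bp upstream of the first start, with a signal of 25.16 in replicate 1, 34.65 in replicate 2 and 65.78 pooled. It missed the threshold, with an IDR of 0.0166 in the pooled list and 0.0292 in the conservative list. The called summits lay in a coding exon, around an internal transcript start that put them in the window. One (chrX:6090183-6090486) was 136 bp downstream of the internal start and had a pooled signal of 55.16 with an IDR of 0.00633. The other (chrX:6090390-6090693) was 71 bp upstream of it and had a pooled signal of 3.251 with an IDR of 0.00634, although it ranked 96183 of the 97869 ranked pooled peaks by signal. In the conservative list these summits had an IDR of 0.187 and 0.592 and were not called. The signal of the coding summits was 37.41 and 11.75 in replicate 2, where both were called, while replicate 1 had 1 summit there of signal 17.96 and IDR 0.913. With the first start of the gene alone, hsp-3 was not called. The overlapping heat shock elements of that exon, which span chrX:6090419-6090436, were 19 and 24 bp from the replicate 1 summit, and the nearer was 84 bp from the stronger pooled summit.

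Calreticulin, the calcium-binding lectin chaperone encoded by crt-1, had a peak (chrV:6100665-6100968) 275 bp upstream of its only start. Its signal was 37.96 in replicate 1, 38.34 in replicate 2 and 93.35 pooled. It was called in both lists made from the 2 replicates together, with an IDR of 0.0021 pooled and 0.00484 conservative. Neither replicate's own list called it, where the IDR was 0.0373 and 0.23. The signals of the replicates were nearly equal, and the summits lay 11 and 23 bp from the UPR element. The summit fell in the exon of Y38A10A.8, an annotated noncoding RNA gene (chromosome V, 6100735 to 6100884).

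The protein disulfide isomerase genes differed. At pdi-3 the strongest peak had a signal of 42.35 in replicate 1, 51.99 in replicate 2 and 79.44 pooled, and the IDR was 0.00201 in the pooled list and 0.00142 in the conservative list. It was called in replicate 2, with an IDR of 0.00328, and missed the threshold in replicate 1, with 0.0431. The summit (chromosome I, 7021429, within a peak from 7021277 to 7021580) lay 632 bp upstream of pdi-3 and in exons of the noncoding RNA genes VF15C11L.1 and VF15C11L.2. It was also 543 bp upstream of ubql-1, which encodes a ubiquilin, so the nearest-gene rule gave it to ubql-1 and not to pdi-3. At pdi-2 the strongest pooled ranked peak, 44 bp upstream of a start, had a signal of 30.82 with an IDR of 0.319, and it exceeded 57.9% of all genes. Replicate 2 had a summit of signal 32.25 inside it, and replicate 1 had none there, its only ranked summit in the window being one of signal 17.3 at 314 bp upstream. The remaining chaperone gene, enpl-1, encodes the GRP94 ortholog. Its strongest pooled ranked peak, 91 bp upstream of a start, had a signal of 44.79 with an IDR of 0.31, and the replicates had 12.69 and 24.38 there. Each replicate had a slightly stronger summit farther upstream, in coding exons of the neighbouring gene imp-2, of signal 15.03 in replicate 1 and 24.63 in replicate 2.

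The gene of the UPR transcription factor, xbp-1, was called in 1 list. Its strongest peak (chrIII:4193440-4193743, intergenic) had a pooled signal of 61.01, and its summit lay 217 bp upstream of the first start. Replicate 2 had a summit of signal 39.44 inside it, 149 bp upstream of that start. The only ranked summit of replicate 1 in the window had a signal of 38.36 and lay 61 bp upstream, outside the pooled peak's interval and between its summit and a weaker pooled summit 10 bp upstream. The conservative list called it with an IDR of 0.00418. The pooled list did not, with an IDR of 0.0757 at the same signal, and the replicates' own summits had an IDR of 0.0595 and 0.457. The weaker pooled summit, of signal 19.14, was called in the conservative list as well. The IDR thus moved across the threshold between lists for xbp-1, hsp-3 and the further summit of hsp-4, while pek-1, crt-1, pdi-3 and the main summit of hsp-4 passed in both lists of the combined replicates.

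**Figure D2:**
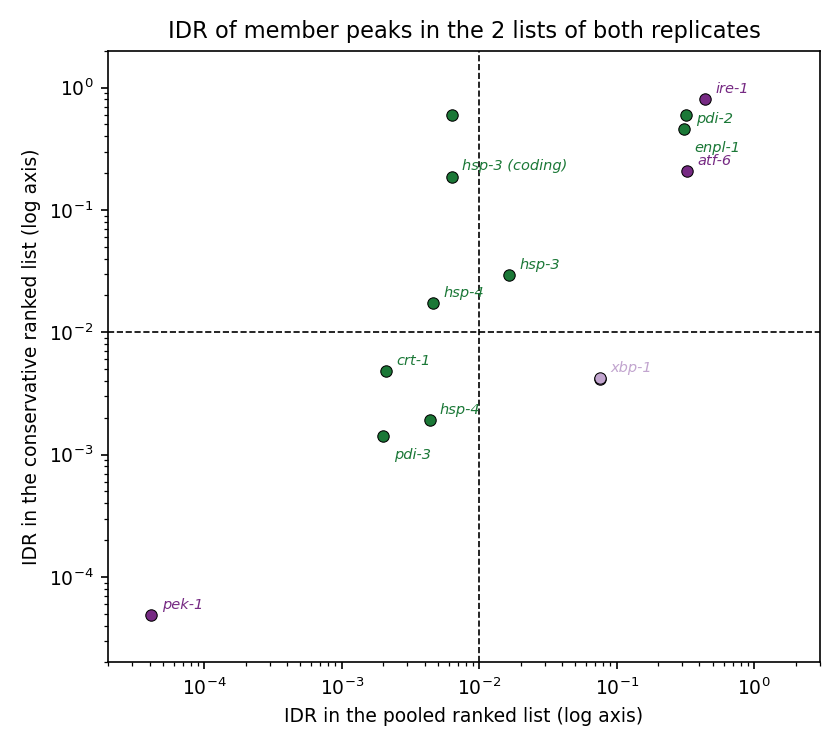
IDR of member peaks in the pooled ranked list (x axis) and in the conservative ranked list (y axis), both log axes, with dashed lines at 0.01. Points are called summits and each member's strongest summit. The unlabelled points are the weaker coding summit of hsp-3 and the weaker summit of xbp-1, which lies over the labelled xbp-1 point. Only pek-1 lies far below both lines, and pdi-2, enpl-1, atf-6 and ire-1 lie above 0.2 on both axes.

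The members called in the pooled list had 7 called summits in all, and none lay inside a member's gene body outside the window. With the conservative list included, the members' called summits outside coding exons lay between 10 and 632 bp upstream of a start. Across the 4 members called in both the pooled and the conservative list, the order by pooled signal was pek-1, hsp-4, crt-1 and pdi-3. The pooled signal of pek-1 was 2.81 times that of hsp-4, with ratios of 2.82 and 2.6 in the replicates. The neighbours hsp-4, crt-1 and pdi-3 changed places between replicates, since pdi-3 was the highest of the 3 in replicate 1 and hsp-4 in replicate 2.

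**Figure D3:**
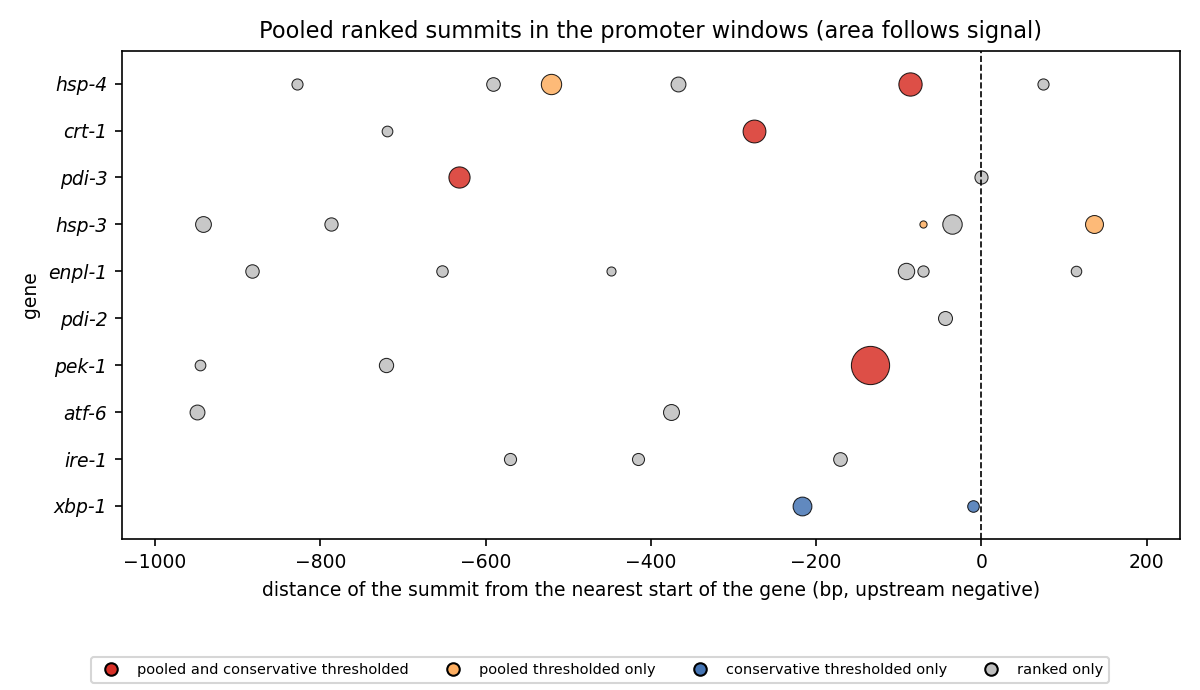
Position of each pooled ranked summit in the members' windows, in bp from the nearest annotated start of the gene (upstream negative); the area of a circle follows its signal and the colour gives the lists that called it. The large circle of pek-1 lies 135 bp upstream, and the called summits of hsp-3 lie on both sides of an internal start.

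Chaperone genes and sensor genes overlapped in signal. Among the 6 chaperone genes 4 were called in the pooled list and 3 in the conservative list, while the list of replicate 1 had 0 and that of replicate 2 had 3. Among the 3 sensor genes 1 was called in each of the 4 lists. Of all genes, 7.63% were called in the pooled list, 7.11% in the conservative list, 3.83% in replicate 1 and 5.29% in replicate 2. The median of the strongest pooled signal was 72.61 for the chaperone genes and 42.07 for the sensor genes, a ratio of 1.73, with 1.57 in replicate 1 and 1.41 in replicate 2. The highest of the 9 was a sensor gene, pek-1, and the lowest was a sensor gene as well, ire-1. With so few genes and 1 group, this ratio is a description of these lists.

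The cytosolic relatives of the chaperones stood far above them. All 5 cytosolic HSP70 and HSP90 genes, hsp-1, hsp-70, F44E5.4, F44E5.5 and hsp-90, were called in every list, and F44E5.4 and F44E5.5 share 1 peak. When a summit was given to the nearest gene only, 4 of the 5 were called in the pooled list. Their median pooled signal was 4387, which was 69.2 times the median of the members, with 70.05 in replicate 1 and 57.05 in replicate 2. The lowest of the 5 was hsp-70, a heat-inducible HSP70 gene, with 137.4 in replicate 1, 148.1 in replicate 2 and 278.6 pooled. Its summit lay 92 bp upstream of its start, in an intron of uggt-2, a gene of the ER glycoprotein folding cycle, and the other 4 genes lay between 3584 and 6602. The pooled signal of pek-1 was 0.983 times that of hsp-70, and the replicates disagreed on the order, with ratios of 0.702 and 1.22.

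Within the HSP70 family, the constitutive cytosolic gene hsp-1 had a signal of 2076 in replicate 1, 2161 in replicate 2 and 4387 pooled. This was 45.0 times the pooled signal of hsp-4, with ratios of 60.8 and 31.1 in the replicates, and 66.7 times that of hsp-3. The heat-inducible hsp-70 was 2.86 times hsp-4, with 4.03 and 2.13. Of the 3 other ER relatives of HSP70, stc-1, T14G8.3 and T24H7.2, none was called in any list, and their pooled signals lay between 34.51 and 45.15. Within the HSP90 family, hsp-90 had 1708, 1900 and 3584, which was 80.0 times the pooled signal of enpl-1, with ratios of 114.0 and 77.1 to the strongest enpl-1 summit of each replicate. That peak lay in an intron of hsp-90, 378 bp upstream of its second start, and with the first start alone the strongest peak of hsp-90 was 96.92. Its summit was also in the window of C47E8.4, whose start was nearer, at 297 bp. The related HSP110 gene hsp-110, whose peak is shared with rpn-3, had 1992, 2720 and 4697.

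**Figure D4:**
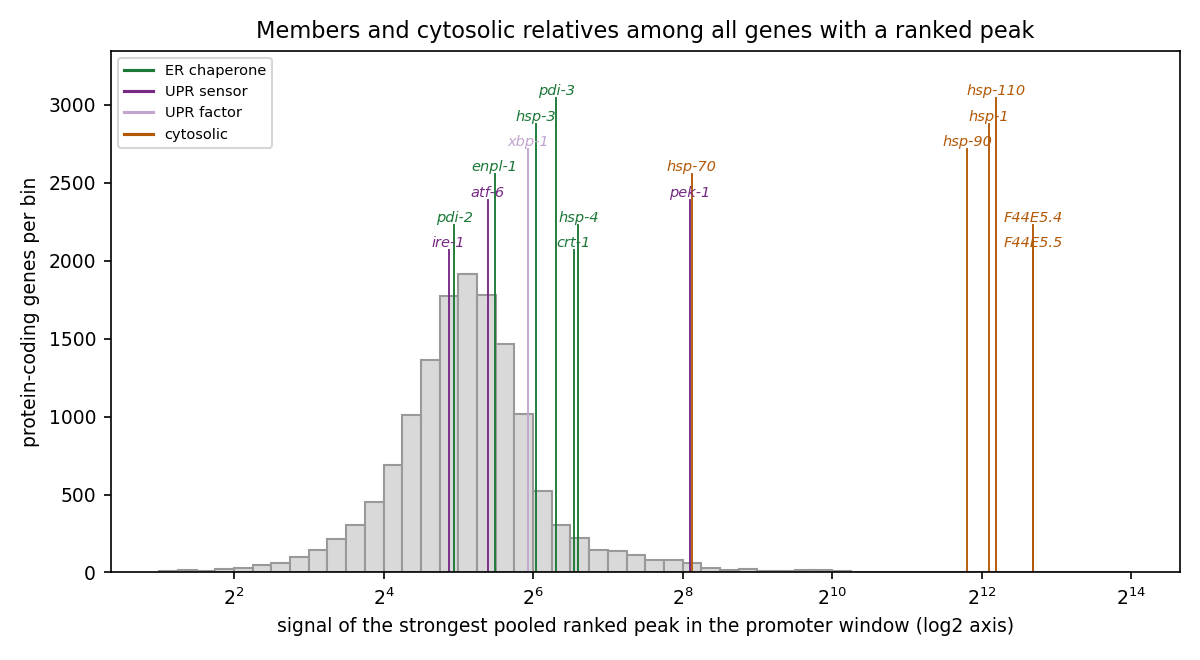
Number of protein-coding genes by signal of their strongest pooled ranked promoter peak (log2 axis), with vertical lines at the members and their cytosolic relatives. The members from ire-1 at 29.24 to hsp-4 at 97.43 fall in the bulk of genes and its upper flank, pek-1 at 273.9 falls beside hsp-70, and the other cytosolic genes lie at 3584 or more.

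The searched elements were found at different members. In windows around the first start, a complete heat shock element was found at 1 of the 10 members, pek-1, at all 5 cytosolic genes and in 7.68% of all promoters. With 1 mismatch allowed, 7 members had one, and so did 64.8% of all promoters. The UPR element was found at 3 members, hsp-3, hsp-4 and crt-1, at 0 of the 5 cytosolic genes and in 9.42% of all promoters. The related hsp-110 had 1, in its coding exon 75 bp downstream of its start. The ER stress element of mammals, CCAAT followed after 9 bases by CCACG, was found in 21 promoters (0.105%), of which 1 was a member, pdi-2. It lay 5 bp downstream of the pdi-2 start and 40 bp from the ranked summit of signal 30.82. A UPR element followed by G also holds CCACG on the other strand. A match gives the letters in a window and does not show which protein bound there.

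Within 100 bp of the called pooled summits, the complete heat shock element was at 2 of the members' 7 summits, at pek-1 and at the coding exon of hsp-3, and at 488 of all 2935 summits (16.6%). A heat shock element with up to 1 mismatch was at 3 of the 7, here also at the main summit of hsp-4. It was at 862 of the 2935 (29.4%). The UPR element was at 2 of the 7, at the main summit of hsp-4 and at crt-1, and at 69 of the 2935 (2.35%). No called summit had the ER stress element. Among the cytosolic genes, the strongest summits of hsp-1 and hsp-90 had no complete heat shock element within 100 bp either, with 1 and 2 matches at 1 mismatch. The hsp-1 promoter held 2 complete elements elsewhere in its window, 138 and 897 bp upstream of the start.

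Between the replicates, the strongest summits lay within 88 bp of each other at 6 members and farther apart at hsp-3, pdi-2, ire-1 and enpl-1. At the 6, the ratio of replicate 2 to replicate 1 was 1.01 at crt-1, 1.03 at xbp-1, 1.23 at pdi-3, 1.26 at atf-6, 1.88 at pek-1 and 2.04 at hsp-4. None of the 6 was lower in replicate 2. Signal is not scaled between lists, and over the 1499 genes called in the pooled list with a ranked peak in both replicates, the ratio of the strongest peaks had a median of 1.26, with a 10th percentile of 0.813 and a 90th of 1.88. Of the 6 members, hsp-4 lay above the 90th percentile. At hsp-3, pdi-2, ire-1 and enpl-1 the strongest summits of the replicates were different ones, 1862, 243, 10217 and 265 bp apart, so their ratios compare different peaks and are not given.

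The genes whose replicate signals were most like those of pek-1, by Euclidean distance of the log2 signals over the 2 replicates among 1498 called genes, were C56C10.7, chp-1 and cyp-31A5, with distances of 0.131, 0.137 and 0.138. Their pooled signals were 257.0, 266.0 and 288.4. With 2 values per gene, this places pek-1 among genes of like height and says no more.

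Other genes of the ER were read from a list of 50 that excludes the members. Of these 6 were called in the pooled list (12%, against 7.63% of all genes) and 8 in the conservative list (16%, against 7.11%). The list of replicate 1 had 5, against 3.83% of all genes, and that of replicate 2 had 6, against 5.29%. Among the 13 genes for translocation into the ER, 5 were called in the pooled list. They were sec-61.G and sec-61.B, subunits of the translocon channel, trap-3, a translocon-associated protein gene that shares its peak with sec-61.B, ostb-1, an oligosaccharyltransferase subunit gene, and spcs-2, a signal peptidase subunit gene. Among the 13 genes for ER-associated degradation 1 was called, cdc-48.1, the gene of the ATPase that extracts proteins from the membrane. Of the 14 other folding genes, which include calnexin, and of the 7 genes downstream of the UPR, 0 were called in the pooled list. The conservative list called 1 of the 14 and 1 of the 7, against 7.11% of all genes. The peak of cdc-48.1 had a signal of 221.4 in replicate 1, 237.6 in replicate 2 and 464.2 pooled, and that of sec-61.G had 149.9, 133.9 and 293.2. Both exceeded pek-1 in the pooled list, but sec-61.G was below pek-1 in replicate 2. The peak of sec-61.B and trap-3 had a pooled signal of 147.8, that of ostb-1 had 103.5 and that of spcs-2 had 67.3. Of the 6 genes, spcs-2 was below hsp-4, crt-1 and pdi-3.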

How the data were processed

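Chromatin immunoprecipitation and sequencing was done on 2 biological replicates of 1 group, per the labels. On ce11, 4 ranked peak lists and 4 thresholded ones were deposited, 1 pair for each replicate and pooled and conservative pairs for both replicates, per the deposited file listings. All share 1 further parent file, which is taken here to be the control, since its type is not stated. The sources used here name neither the aligner nor the peak caller. Read counts were not analysed here, so the depth is unknown. The signal of each peak is the value the authors deposited and is not scaled between lists. Each ranked peak has a −log10 of its IDR, as deposited by the authors, and the files also give the offset of each summit. The smallest IDR in the deposited files is 1e-05. The ranked series tables also hold 16 columns of values whose sample is not named, which were not used. The pooled thresholded list repeats 19 intervals with a different summit, and all summits were used.

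Transcript starts came from Ensembl release 115 on the same assembly, and sequences from the RefSeq genome. A gene was called when a thresholded summit lay in the window of any of its starts, so genes with several starts had longer windows, and 1 summit could serve several genes. Elements were counted in the window of the first start and within 100 bp of summits. A value set beside another is a description, and no test was made, since there is 1 group. The members, gene lists and elements were chosen with earlier results of these data known. Named genes were every member, the cytosolic HSP70, HSP90 and HSP110 genes, other ER genes with a pooled called peak, genes sharing a member's summit, and the 3 called genes nearest to pek-1 in replicate signal. The ER relatives of HSP70 were named as the whole of their list, after their values were seen. No listed gene was left unmatched. The alternatives were the conservative list, each replicate alone, other IDR thresholds, windows, assignments of peaks and element settings. The search and assignment steps were checked on simulated data. Computations used Python 3.11.15 with numpy 2.4.6 and pandas 2.3.3.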

Additional observations from a re-analysis of the deposited data

How the results depend on the processing

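The 5 members called in the pooled list were 1 at an IDR of 0.001 or less (pek-1, against 4.16% of all genes). Replicate 1 alone gave 1, against 3.83% of all genes, and replicate 2 alone gave 4, against 5.29%. The count stayed between 4 and 5 in the conservative list, with other windows, with overlap and at an IDR of 0.05 or less. It did so too with the nearest gene only and with the first start only. Over these settings the share of all genes was between 5.58% (narrower window) and 12.2% (IDR of 0.05 or less). The members' median signal, 63.4 pooled, was 29.64 to 37.88 in a single replicate, since signal is not scaled between lists. The ratio of the cytosolic median to it, 69.21, was 57.05 to 70.05. The 6 other ER genes (against 7.63% of all genes) were 15 at an IDR of 0.05 or less, where 12.2% of all genes were called. In a single replicate they were 5 to 6, against 3.83% of all genes in replicate 1 and 5.29% in replicate 2. The heat shock elements near the members' 7 called summits, 2 within 100 bp, were 1 within 50 bp and 3 within 200 bp. They were also 3 within 100 bp when 1 mismatch was allowed, where 29.4% of all called summits had one. The first start as the only start for signal was chosen after the data were seen, and it left every member's pooled signal as it was. In replicate 2 the strongest summit by the first start was 34.65 at hsp-3 and 15.98 at ire-1. With all starts these were 37.41 and 26.88. No paired analysis was possible because there was 1 group. Read counts are not given, so how far depth limits the weak peaks, which are most of the members' peaks, cannot be said.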
